A study of Mus musculus with 12 samples.

Results

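The genes described here encode subunits of a pair of protein complexes of the lysosomal system, BLOC-1 and Ragulator. They are Bloc1s2, Bloc1s3, Bloc1s4, Bloc1s5 and Bloc1s6 of BLOC-1, and Lamtor1, Lamtor2, Lamtor3 and Lamtor5 of Ragulator. Members were all probe sets, the groups of short oligonucleotides that together read 1 transcript on an Affymetrix array, that the platform annotation assigns to exactly 1 of 10 gene symbols. This gave 17 of 45101 probe sets and 9 of 18193 named genes, with 9 probe sets for 5 BLOC-1 genes and 8 for 4 Ragulator genes. Bloc1s1 has no member, because its single probe set carries the symbol of a further gene as well. The set was chosen by the measured genotype differences of Bloc1s4 and Lamtor1, and was completed with the other subunits. Genotype differences of the members are therefore given as a description and support no claim.

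BLOC-1 is a cytosolic complex that sorts cargo out of early endosomes towards lysosome-related organelles such as melanosomes, and mouse strains that lack its subunits have diluted coats. Some of its subunits also serve in BORC, a complex that couples lysosomes to kinesin and moves them towards the cell periphery. Ragulator sits on the lysosomal surface, where Lamtor1 is held by lipid anchors and wraps the other subunits. It docks the Rag GTPases, which recruit the growth-controlling kinase complex mTORC1 when amino acids are plentiful, and its Lamtor2 and Lamtor3 pair also scaffolds MAP kinase signalling.

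RNA came from primary mammary epithelial cells of female FVB/N mice, an inbred strain. The 6 p190B arrays were of mice with both MMTV-rtTA and TetO-p190B-IRES-luciferase, and the 6 control arrays of mice with MMTV-rtTA alone. The MMTV promoter directs the rtTA activator to the mammary gland, and rtTA with doxycycline switches on TetO-p190B, an extra copy of the GTPase-activating protein encoded by Arhgap5. Control and transgenic mice alike were 5 weeks old when put on doxycycline chow (2 g/kg), stayed on it 7 days and gave cells at 6 weeks, so the drug and rtTA are common to both groups. The labels call the arrays of a group biological replicates and do not say whether an array holds 1 mouse or several.

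Across the series, each array holds linear MAS5 intensities with a median between 187.6 and 211.5, and precision is bounded by 6 arrays a group; ± gives the SD over these 6 throughout. All 5 luminal and all 5 basal epithelial markers were above the intensity filter, a level of about 101 units below which probe sets were set aside, on every array, as were all 5 macrophage and all 4 fibroblast markers, so the preparations held other cells too. Of the melanocyte markers, which stand for the cell type best known for BLOC-1, 0 of 4 were above the filter on every array, and Tyr, Tyrp1 and Dct were below it on all of them. The summed intensity of the 4 melanocyte markers ran from 207 to 334 in control and from 224 to 433 in p190B. Lymphocyte markers varied widely between arrays of both groups. Summed T and NK cell markers ran from 693 to 7150 in control and from 423 to 8138 in p190B. Summed B cell markers ran from 263 to 4931 and from 195 to 3952. Mean log2 differences of the 9 marker lists, p190B minus control, ran from −0.12 for melanocytes to 0.14 for macrophages, and their part in the results was not tested. The 4 Arhgap5 probe sets gave log2 differences from −0.32 to 0.41 and none passed limma, a linear-model test for arrays, after Benjamini-Hochberg adjustment over all probe sets, with adjusted p from 0.258 to 0.925. The p190B arrays had higher 3′ over 5′ ratios of the Actb and Gapdh control probe sets, a measure of RNA integrity. The log2 Gapdh ratio was −0.49 ± 0.02 in control against −0.40 ± 0.06 in p190B (n = 6 each, exact two-sided permutation p = 0.00866 adjusted over both ratios). The log2 Actb ratio was 0.29 ± 0.03 against 0.40 ± 0.11 (n = 6 each, exact permutation p = 0.0152 adjusted), and without control replicate 5 or 6 it no longer passed. It was highest on p190B replicates 3 and 1, at 0.59 and 0.48. Both arrays also stood apart in the control probe sets for small-subunit ribosomal RNA. Replicate 3 read 4266 units by the 3′ and 1839 by the 5′ probe set and replicate 1 read 725 and 358, against 233 to 440 and 152 to 270 on the other 10 arrays. The part of this signal in the results was not tested, and values without both arrays are given for the members that the results turn on.

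Promoter sequence is shown for Bloc1s4 and Lamtor1 because the results turn on these genes. The array probes themselves are not in the files used here. Each line is the 250 bases before the transcription start in RefSeq, mouse assembly GRCm38.p6, read 5′ to 3′ on the gene's strand, at chr5:36748680-36748929 on the minus strand for Bloc1s4 and chr7:101905587-101905836 on the plus strand for Lamtor1. Capitals mark CCGGAAG, the core of an ETS factor motif, in Bloc1s4 and CACGTG, the core of the element that the lysosomal gene regulator TFEB binds, in Lamtor1.
Bloc1s4: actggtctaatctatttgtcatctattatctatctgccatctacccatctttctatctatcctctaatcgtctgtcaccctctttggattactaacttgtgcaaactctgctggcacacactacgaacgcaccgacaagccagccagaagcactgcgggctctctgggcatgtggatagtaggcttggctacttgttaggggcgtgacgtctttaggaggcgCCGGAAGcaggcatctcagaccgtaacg
Lamtor1: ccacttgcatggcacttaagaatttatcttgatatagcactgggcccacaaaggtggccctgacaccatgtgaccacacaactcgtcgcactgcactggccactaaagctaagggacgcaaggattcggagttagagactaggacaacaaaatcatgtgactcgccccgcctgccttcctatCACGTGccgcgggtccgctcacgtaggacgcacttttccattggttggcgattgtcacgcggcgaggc
The CACGTG match begins 68 bases before the Lamtor1 start, and the CCGGAAG match 28 bases before the Bloc1s4 start. These letters were searched on both strands in windows of 300 bases, 250 before and 50 after the start, of which 7 belong to member genes with a probe set. CACGTG, which reads the same on both strands, lay in 2 of 7 (Bloc1s3 and Lamtor1) and in 7.15% of all 32851 promoters. CCGGAAG, chosen after these promoters had been read, lay in 4 of 7 (Bloc1s2, Bloc1s4, Lamtor1 and Lamtor2) and in 8.86% of all. The Lamtor1 match to CCGGAAG lies after the start, outside the stretch printed. The motifs do not overlap. A match describes letters and shows no binding.

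Among BLOC-1 genes the difference between genotypes lay in 1 probe set of Bloc1s4, the subunit mutated in cappuccino mice. Probe set 1459783_s_at read 4272 intensity units at the lowest, 4623 at the median and 4910 at the highest over the 6 control arrays. Over the 6 p190B arrays it read 2648, 3000 and 3493. Every p190B array was thus below every control array, and the highest p190B array stood well under the lowest control one. On the scale of log2(intensity + 16), used for all differences here, p190B minus control was −0.61 (SE 0.07), so on average the signal fell by 34.3%. This value chose the gene, and its limma adjusted p was 0.00404 over 27022 probe sets. In a preparation of many cells, fewer cells that express a gene and less RNA per cell cannot be told apart.

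The second Bloc1s4 probe set showed no such gap. 1418834_at read 1201, 1303 and 1501 at the lowest, median and highest control array and 1193, 1360 and 1513 in p190B. The groups covered nearly the same range, with a log2 difference of 0.02 (SE 0.08) that turned negative under equal medians, with the Gapdh ratio as a covariate and without control replicate 3 or p190B replicate 1 or 4. The third, 1447620_at, lay below the intensity filter, at 16.4 to 31.7 units in control and 7.1 to 54 in p190B, a log2 difference of −0.01 (SE 0.28). In Affymetrix naming, the suffix _s_at means that a probe set can match several transcripts and _x_at that some probes can match unrelated ones, while _a_at reads several transcripts of 1 gene. 1459783_s_at carries the suffix _s_at, although the annotation gives it 1 symbol.

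**Figure D1:**
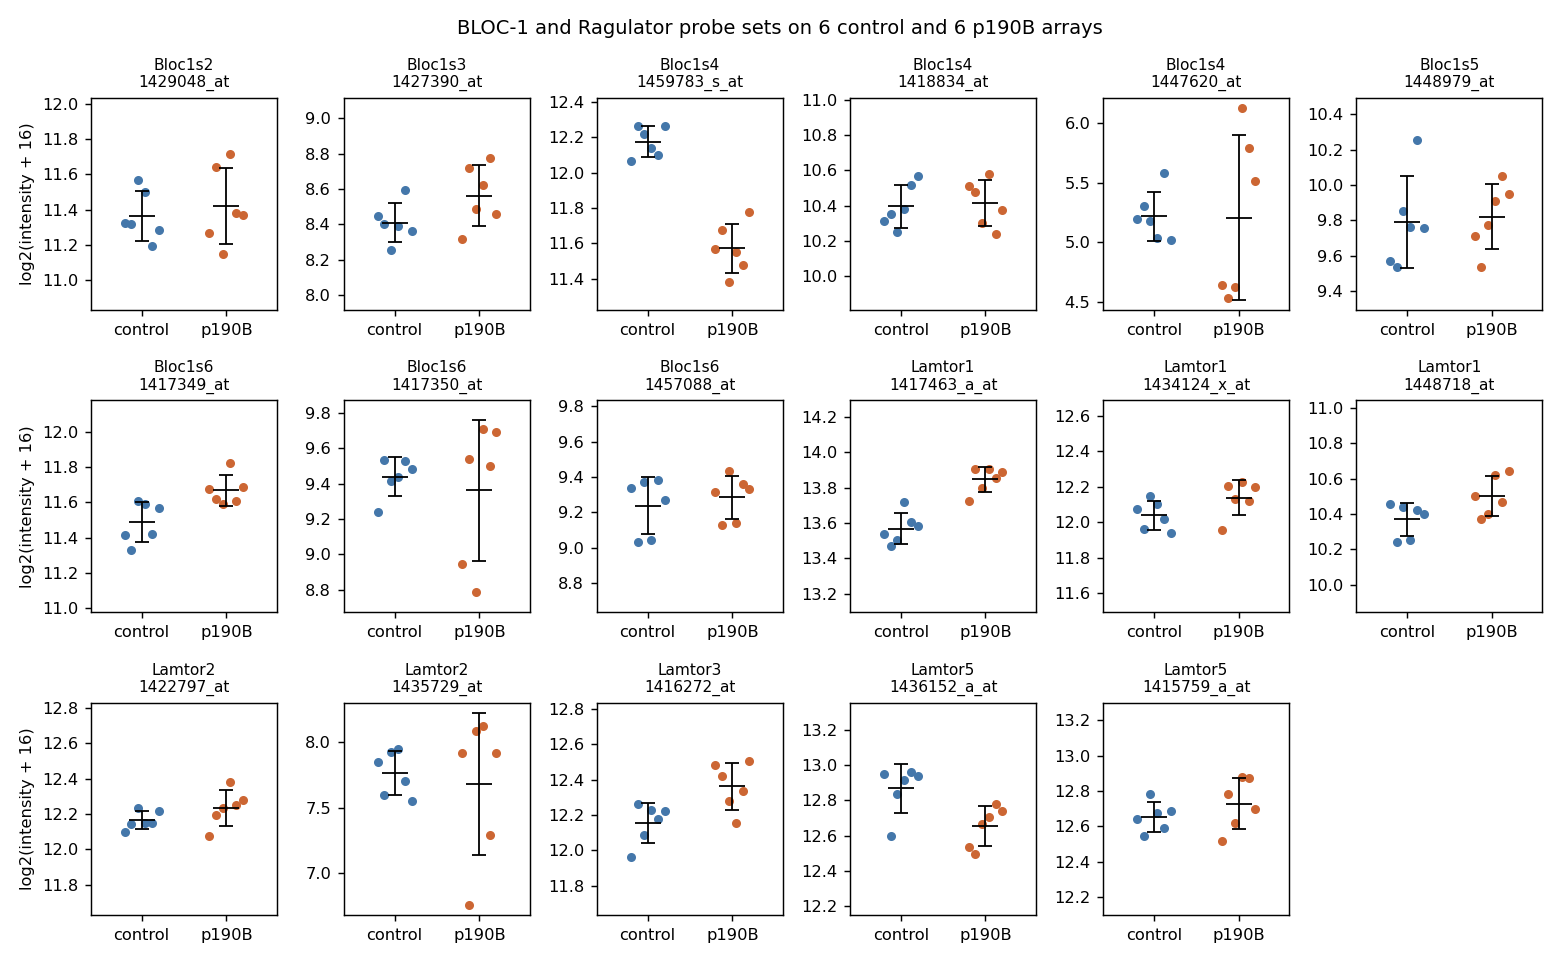
Each panel plots log2(intensity + 16) of 1 member probe set on the 6 control (blue) and 6 p190B (orange) arrays, with the mean and SD in black; the vertical axis differs between panels. The groups are apart in Bloc1s4 1459783_s_at (lower in p190B) and Lamtor1 1417463_a_at (higher), and 1417350_at of Bloc1s6 has 2 low p190B arrays.

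The other BLOC-1 genes differed by less. Bloc1s6, which encodes pallidin, was read by 3 probe sets. The brightest, 1417349_at, read 2557, 2875 and 3102 units at the lowest, median and highest control array and 3062, 3198 and 3612 in p190B. Here 5 of 6 p190B arrays lay above all control arrays, with a log2 difference of 0.18 (SE 0.07) and a limma adjusted p of 0.439. Probe set 1417350_at split the p190B group itself. Its p190B replicates 3 and 1 read 424.8 and 476.6 units, below the control range of 588.6 to 724.5, while the other p190B arrays read 708.1 to 819.9. Those are the arrays with the highest Actb ratio and the highest ribosomal RNA signal, and a link to this probe set was not tested. The log2 difference was −0.08 (SE 0.15) with them and 0.17 (SE 0.09) without them, and 0.27 with the Actb ratio as a covariate. The third Bloc1s6 probe set, 1457088_at, gave 0.05 (SE 0.09).

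Bloc1s3, mutated in reduced pigmentation mice, read 290, 321 and 370 units at the lowest, median and highest control array. In p190B it read 302.5, 360.6 and 421.7, so 3 of 6 arrays were above all controls, for a log2 difference of 0.15 (SE 0.10). Bloc1s2, which also serves in BORC, ran from 2332 to 3015 units in control and 2260 to 3341 in p190B, a log2 difference of 0.06 (SE 0.10) that was −0.0016 without p190B replicate 4. Bloc1s5, mutated in muted mice, ran from 725.4 to 1206 in control and 726.9 to 1044 in p190B, a log2 difference of 0.03 (SE 0.12). Its p190B arrays all lay inside the control range.

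In Ragulator, the scaffold gene Lamtor1 had 3 probe sets, all with a positive difference in the fit and in all 25 other settings. 1417463_a_at read 11326, 12050 and 13448 units at the lowest, median and highest control array. In p190B it read 13543, 14979 and 15351, so every p190B array was above every control array, although the closest arrays of the 2 groups read 13543 and 13448. The log2 difference was 0.28 (SE 0.05), with a limma adjusted p of 0.1001. Quantile normalisation, with 0.28 (SE 0.05), brought that p to 0.0459 (2 members then passed, against 0.115% of all tested), and no other setting brought it under 0.05. The other Lamtor1 probe sets differed by less. 1448718_at ran from 1195 to 1392 units in control and from 1312 to 1585 in p190B (0.13, SE 0.07), and 1434124_x_at from 3913 to 4518 and from 3961 to 4777 (0.10, SE 0.06).

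Lamtor2 and Lamtor3, which form a dimer inside Ragulator, were mixed. Lamtor3, the MAP kinase scaffold also called Mp1, read 3973, 4681 and 4894 units at the lowest, median and highest control array. In p190B it read 4535, 5306 and 5800. Here 5 of 6 p190B arrays lay above all control arrays, with a log2 difference of 0.21 (SE 0.07) and a limma adjusted p of 0.406. The brighter Lamtor2 probe set, 1422797_at, ran from 4373 to 4803 in control and 4294 to 5326 in p190B, a log2 difference of 0.07 (SE 0.06). The dimmer, 1435729_at, gave −0.08 (SE 0.21) and was pulled down by p190B replicate 2 at 91.8 units. Without that array its difference was 0.11.

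The probe sets of Lamtor5, which pairs with Lamtor4 inside Ragulator, had opposite signs. 1436152_a_at read 6197, 7772 and 7970 units at the lowest, median and highest control array and 5769, 6572 and 7029 in p190B. All p190B arrays were below the control median and 2 of 6 below every control array, with a log2 difference of −0.21 (SE 0.07) and a limma adjusted p of 0.3998. With the Gapdh ratio as a covariate the value was nearest to 0, at −0.07. 1415759_a_at, of about the same brightness, ran from 5961 to 7039 in control and 5847 to 7533 in p190B, a log2 difference of 0.08 (SE 0.07).

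**Figure D2:**
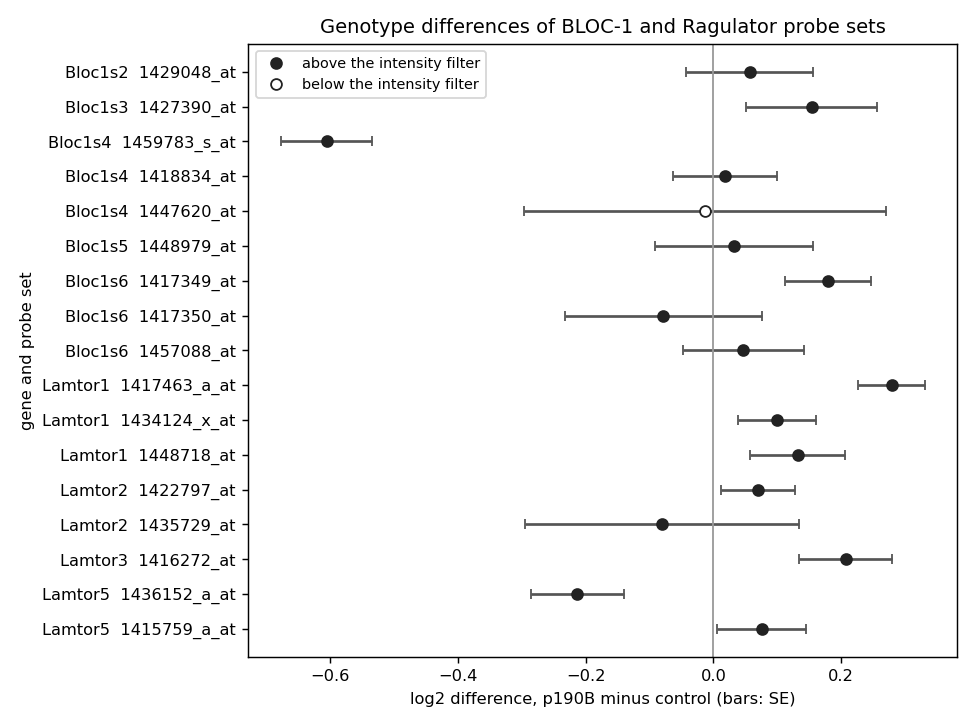
The log2 difference, p190B minus control, is drawn for each of 17 member probe sets with its SE as a bar; the open point lies below the intensity filter. Bloc1s4 1459783_s_at stands alone at −0.61, and the other differences lie between −0.21 and 0.28.

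Of 17 member probe sets, 16 passed the filter on low intensity. Among these 1 had an adjusted p under 0.05, where 0.037% of all tested probe sets did, and 5 an unadjusted p under 0.05, where 9.32% did. The groups did not overlap for 2, Bloc1s4 1459783_s_at and Lamtor1 1417463_a_at, against 0.877% of all tested. The median log2 difference of the 16 was 0.06, against 0.02 over all tested, and 12 were positive, against 54.9% of all. The choice of members used this comparison, so nothing is read from these counts. The SD within genotypes ranged from 0.08 for Lamtor1 1417463_a_at and Lamtor2 1422797_at to 0.40 for Lamtor2 1435729_at on the log2 scale, with a median of 0.12, against a median of 0.21 over all tested probe sets. The medians were not compared at like intensity, so the lower SD is not read as a trait of these genes.

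A ratio of 2 probe sets of 1 gene on the same array depends little on how arrays are scaled. It can still move with RNA integrity, whose 3′ over 5′ measures differed between genotypes, and this was not tested. For Bloc1s4 the log2 ratio of 1459783_s_at to 1418834_at was 1.78 ± 0.14 in control and 1.16 ± 0.15 in p190B. It ran from 1.58 to 1.97 in control and from 0.97 to 1.40 in p190B, without overlap. For Lamtor5 the log2 ratio of 1436152_a_at to 1415759_a_at was 0.21 ± 0.13 in control and −0.07 ± 0.14 in p190B. Its lowest control array, at 0.0512, and highest p190B array, at 0.0507, all but touched. For Lamtor1 the log2 ratio of 1417463_a_at to 1434124_x_at was 1.53 ± 0.11 in control and 1.71 ± 0.04 in p190B, with a narrow gap between 1.64 and 1.67. The ratio separated the genotypes in 3 of 9 pairs of member probe sets and in 2.18% of 17884 such pairs over all genes. In the other 6 pairs the groups overlapped. These ratios use the same contrast that chose the genes, were not tested and are given as a description. Which probe set of a gene follows its transcript cannot be told from them.

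**Figure D3:**
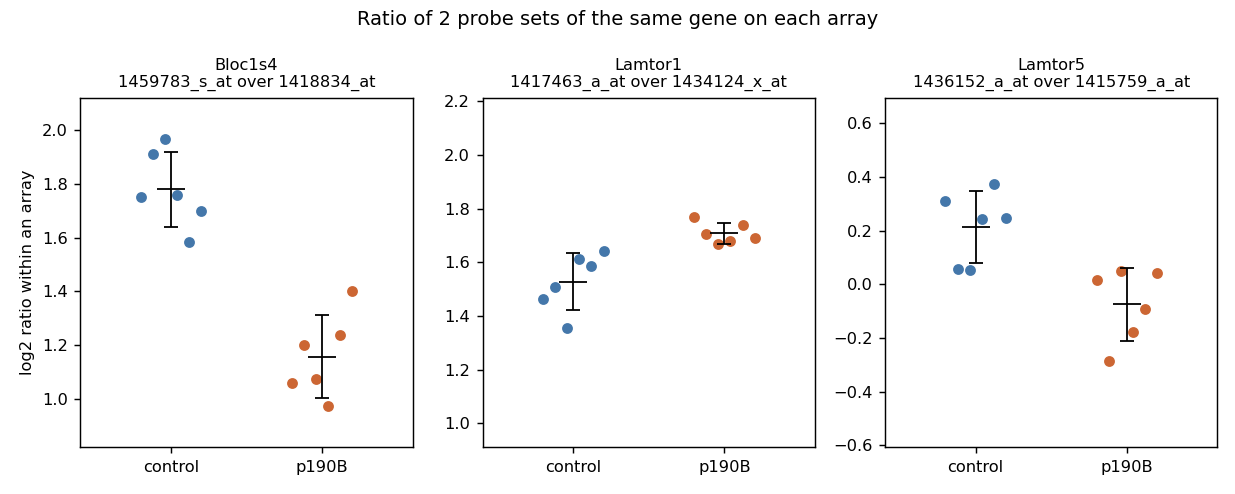
The log2 ratio of 2 probe sets of the same gene on each of 6 control (blue) and 6 p190B (orange) arrays, with mean and SD in black; all panels span the same height. The Bloc1s4 ratio averages 1.78 in control and 1.16 in p190B, the Lamtor1 ratio is higher in p190B and the Lamtor5 ratio lower.

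The Bloc1s4 1459783_s_at difference kept its sign in all 25 other settings and ran from −0.65 to −0.53. Its adjusted p stayed under 0.05 in 22 of them, including all 12 that left out 1 array, where it ran from 0.00758 to 0.0209. All settings refit the arrays whose difference chose the gene, so these values describe the processing and give no independent support. Since the Actb and Gapdh ratios moved with genotype, both were entered as covariates. The difference was then −0.53 (SE 0.08) with Actb and −0.56 (SE 0.11) with Gapdh, with a limma adjusted p of 0.0727 and 0.719. Over all tested probe sets 1 passed with Actb and 0 with Gapdh. Without p190B replicates 1 and 3 it was −0.56 (SE 0.07), with a limma adjusted p of 0.0466, and Lamtor1 1417463_a_at was 0.32 (SE 0.05), with a limma adjusted p of 0.0800. Lamtor1 1417463_a_at was 0.34 (SE 0.06) with Actb and 0.35 (SE 0.08) with Gapdh as a covariate, with a limma adjusted p of 0.106 and 0.719.

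**Figure D4:**
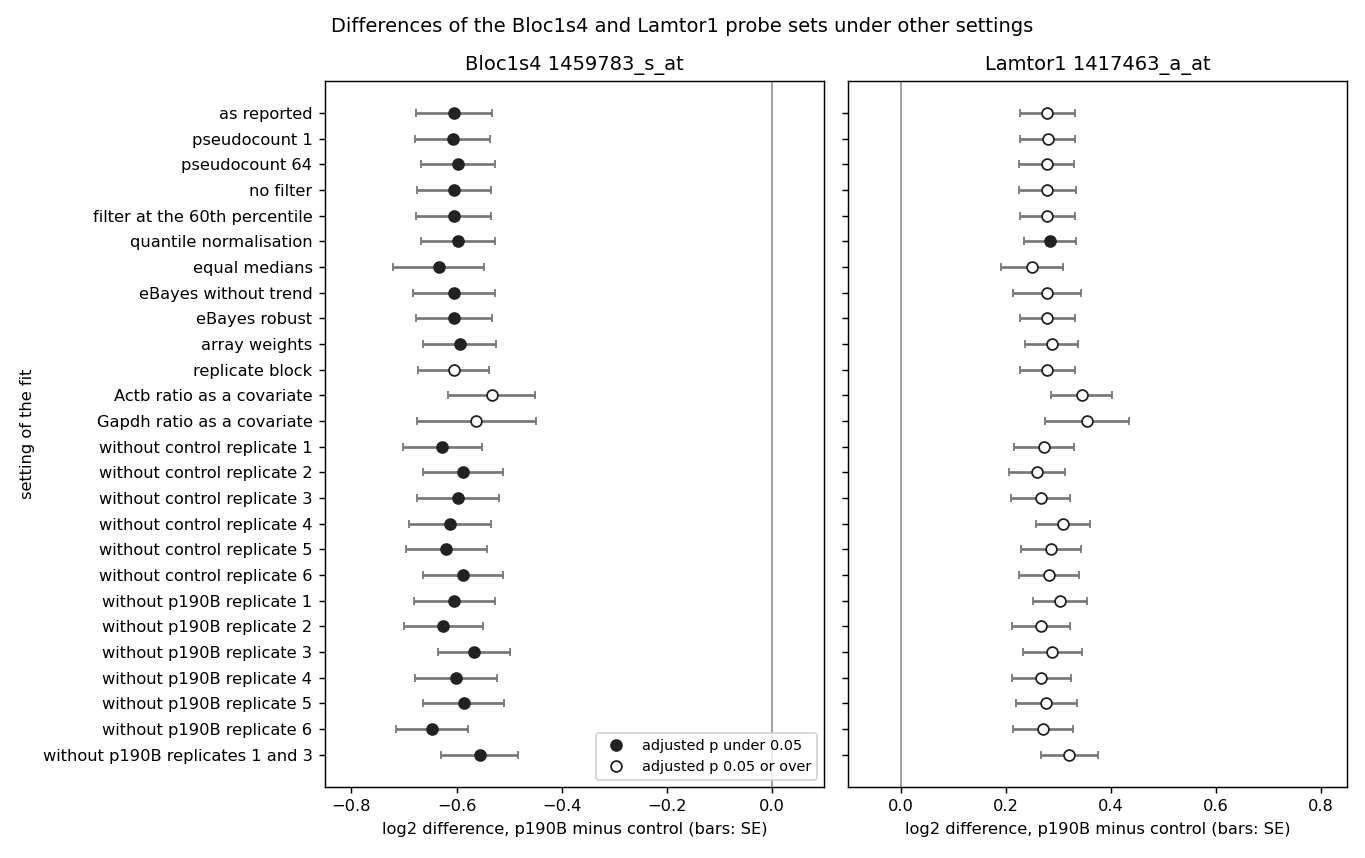
The log2 difference, p190B minus control, with its SE under each setting of the fit, for Bloc1s4 1459783_s_at (left) and Lamtor1 1417463_a_at (right). Filled points have an adjusted p under 0.05: 22 of 25 alternatives for Bloc1s4 and 1 of 25, quantile normalisation, for Lamtor1.

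Whether subunits of a complex vary together between preparations is a question that the genotype contrast does not enter. The brightest probe set stood for each gene, and values were taken relative to the genotype mean over all 12 arrays. Probe sets of Bloc1s4 and of Lamtor5 disagreed above, so an r of these genes speaks for the brightest probe set only. Where the 2 arrays farthest from a median were left out, distance was taken before the genotype mean was subtracted. For Bloc1s4 these were p190B replicates 3 and 5, so genotype enters that choice. Of 36 pairs of member genes, 0 passed a permutation test of Pearson's r after Benjamini-Hochberg adjustment, and 2 had an unadjusted p under 0.05. By chance alone about 1 in 20 pairs would have such an unadjusted p. The median r was 0.18 among 6 Ragulator pairs, 0.19 among 10 BLOC-1 pairs and 0.27 among 20 pairs across the complexes. No count or median over pairs of other genes is given to set beside these. They do not show that subunits vary together, and the pairs below are a description. The largest r was between Bloc1s5 and Lamtor5, at 0.67 (permutation p = 0.0412, adjusted p = 0.566). Spearman's rank correlation for this pair was 0.76 (permutation p = 0.0105, adjusted p = 0.378). Without the 2 arrays farthest from the Bloc1s5 median r was 0.64, and it was 0.50 within control and 0.96 within p190B. The other pair with such a p lay within BLOC-1, Bloc1s2 with Bloc1s6, at r = 0.59 (permutation p = 0.0411, adjusted p = 0.566), with a rank correlation of 0.54 (permutation p = 0.0758, adjusted p = 0.545). Without the 2 arrays farthest from the Bloc1s2 median r was 0.61, and within control and p190B it was 0.66 and 0.61. The second largest r joined Bloc1s4 with Lamtor3, at r = 0.61 (permutation p = 0.0576, adjusted p = 0.566), with a rank correlation of 0.63 (permutation p = 0.0550, adjusted p = 0.545). Without the 2 arrays farthest from the Bloc1s4 median r was 0.60, and within control and p190B it was 0.61 and 0.62.

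The genes whose levels followed Bloc1s4 1459783_s_at most closely, by Pearson's r of values relative to the genotype mean over 12 arrays, were Pmpcb (0.88), Trip12 (0.87) and Ebp (0.86). For Lamtor1 1417463_a_at they were Magt1 (0.91), Anapc10 (0.91) and Zfp53 (0.90). They are the top of the tested probe sets that carry 1 symbol of another gene, ranked by r on few arrays, and are given as a description. None of these 6 probe sets differed between genotypes by limma, with adjusted p from 0.419 for Pmpcb to 0.975 for Magt1.

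The genes that work with BLOC-1 and Ragulator were read from 10 lists, 99 genes in all. Of the 172 probe sets of 87 genes that passed the filter, 0 passed limma over all probe sets, and 21 had an unadjusted p under 0.05 (12.2%, against 9.32% of all tested), 8 higher and 13 lower in p190B. The median log2 difference was 0.04, against 0.02 over all tested.

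Among partners of BLOC-1, the other BLOC-1 and BORC subunits gave 0 of 8 probe sets at an unadjusted p under 0.05, with log2 differences from −0.09 to 0.12, both ends read by probe sets of the BORC gene Borcs7. For BLOC-2, BLOC-3 and the adaptor AP-3, which act in the same sorting route, 4 of 25 had such a p, 2 in each direction. Ap3s1, the small subunit of AP-3, averaged 11421 ± 1089 units in control and 10132 ± 606 in p190B, a log2 difference of −0.17 (SE 0.06). A dim Ap3d1 probe set, 1445280_at, gave 0.56 (SE 0.18) from 93.8 ± 28.0 to 142 ± 20.6 units, while the other gave 0.10. Limma adjusted p was 0.442 for Ap3s1 and 0.366 for Ap3d1.

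In the lysosome positioning list 3 of 16 probe sets had an unadjusted p under 0.05, all lower in p190B, against 9.32% of all tested. All 3 read 1 gene, Kif5b, which holds 6 of the 16, so the count does not describe the list. The list held the related gene nearest to the threshold. Kif5b, the heavy chain of the kinesin that BORC couples to lysosomes, read 5990 to 7370 units by 1418429_at in control and 4811 to 5551 in p190B. Every p190B array was below every control array, with a log2 difference of −0.34 (SE 0.06) and a limma adjusted p of 0.0683. That p was under 0.05 in 3 of 25 other settings: 0.0494 with the filter at the 60th percentile, 0.0420 with quantile normalisation and 0.0398 with array weights. A second Kif5b probe set, 1418430_at, ran from 7137 to 7937 units in control and from 6045 to 6930 in p190B, again with no overlap (−0.21, SE 0.05). The other 4 gave −0.31, −0.15, −0.10 and −0.02, of which the last was positive in 3 settings, by up to 0.03, and −0.15 in 1, at 0.04. Over all tested probe sets the groups did not overlap for 0.877%, in either direction. Kif5b serves many cargoes besides lysosomes.

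Among partners of Ragulator, 1 of 10 probe sets of Lamtor4, the Rag GTPases and Slc38a9 had an unadjusted p under 0.05. It read Slc38a9, the lysosomal arginine sensor, at 489 ± 47.8 units in control and 399 ± 38.0 in p190B, a log2 difference of −0.28 (SE 0.10). A dimmer Slc38a9 probe set gave −0.52 (SE 0.26), and others reached 0.18. Of the GATOR and folliculin genes, which set the Rag GTPases, 4 of 21 had such a p. Fnip1, the folliculin partner, gave −0.51 (SE 0.12) by 1449668_s_at, from 5605 ± 1023 to 3889 ± 449 units, while its 2 other probe sets gave −0.16 and 0.31. Seh1l, a GATOR subunit that also serves in the nuclear pore, gave −0.29 (SE 0.09) by the probe set of smallest p, and its others ran from −0.13 to 0.35. Of mTORC1 and its regulators 2 of 17 had such a p. Rheb, the GTPase that switches mTORC1 on, gave −0.21 (SE 0.07) and Mtor itself 0.34 (SE 0.16) by a dim probe set and 0.16 by its other one. Limma adjusted p was 0.399 for Slc38a9, 0.154 for Fnip1, 0.384 for Seh1l, 0.379 for Rheb and 0.525 for Mtor. Map2k1, the kinase that Lamtor3 binds, stood at 0.15 (SE 0.07; limma adjusted p 0.530) and was 1 of 3 probe sets of its list with such a p, beside Map2k2 at 0.21 (SE 0.32) and, by its other probe set, 0.02.

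Genes of the lysosome itself lay on both sides of 0. For the TFEB family 0 of 4 probe sets had an unadjusted p under 0.05, with log2 differences from 0.08 to 0.25, among them Mitf (0.17, SE 0.12) and Tfec (0.25, SE 0.20). Of the vacuolar ATPase, the proton pump that acidifies lysosomes, 2 of 30 had such a p. Atp6v1g1 gave −0.14 (SE 0.04), and 0.06 by its other probe set. A dim Atp6v0a1 probe set gave 0.39 (SE 0.17), and the others of that gene ran from −0.22 to 0.19. Of lysosomal membrane proteins and hydrolases 4 of 38 had such a p. Lamp2, a major lysosomal membrane protein, had probe sets of opposite sign, as Lamtor5 did. By 1434503_s_at it averaged 12886 ± 2781 units in control and 17575 ± 1436 in p190B, a log2 difference of 0.48 (SE 0.13). By 1416343_a_at it averaged 6633 ± 457 and 5781 ± 331, a log2 difference of −0.20 (SE 0.06), with every p190B array below every control array. No overlap, in either direction, was seen for 0.877% of all tested probe sets. The other Lamp2 probe sets gave −0.02 and 0.07. Limma adjusted p of the first pair was 0.270 and 0.312. It was 0.345 for Atp6v1g1 and 0.489 for Atp6v0a1.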

How the data were processed

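Per the labels' protocols, biotin-labelled cRNA from total RNA was hybridised to Affymetrix arrays, 6 p190B and 6 control. The authors deposited 1 linear intensity per probe set and array, made with MAS5 per the submitters' processing notes, where neither a version nor a target is named. The 2% trimmed mean is 1000 on every array, so arrays share a scale. No value is 0. No batch or scan date was used, since the labels give none.

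Intensities were used as log2(intensity + 16), which understates changes of dim probe sets. Probe sets with a mean at or above the 40th percentile (about 101 units) were kept, 27022 of 45037 without array controls. Genotypes were compared two-sided with limma 3.58.1 in R 4.3.3 (eBayes with trend, Benjamini-Hochberg over 27022 probe sets, threshold 0.05), a fit also checked on simulated data. A probe set below the filter was read from the fit without one. Ratios of 3′ to 5′ control probe sets were compared by exact permutation over 924 assignments, and correlations with 100000 permutations within genotypes (Python 3.11.15). Figures used matplotlib 3.10.9.

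Named are all members, in each related list the probe sets past the threshold and those with the 2 smallest p, and the 3 genes most like Bloc1s4 and Lamtor1. Other tested probe sets of the related genes named are given beside them, singly or as a range. Members and lists were chosen with earlier results of these data known. The 25 other settings were pseudocounts of 1 and 64, no filter or one at the 60th percentile, 2 normalisations, eBayes without trend or robust, array weights, a replicate block, the Actb or Gapdh ratio as a covariate, and arrays left out.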

Additional observations from a re-analysis of the deposited data

Results flagged for a closer look

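A gap test for a single distant array was applied to 38 groups of 6; it picked out 2, where about 1 in 20 groups is picked by chance. For Lamtor5 1436152_a_at, control replicate 2 had a log2 value of 12.60, below 12.84 to 12.96 on the other control arrays; without it the genotype difference was −0.27. The same array had a log2 Actb 3′ over 5′ ratio of 0.349, above 0.253 to 0.286 on the other control arrays.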

How the results depend on the processing

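Over all probe sets 10 passed (1 higher, 9 lower), and the count was 5 with no filter, 17 with the filter at the 60th percentile, 31 with quantile normalisation (9 higher, 22 lower), 3 with equal medians, 3 without trend, 19 with array weights, 1 with Actb and 0 with Gapdh as covariate (3394 and 1802 had an unadjusted p under 0.05, against 2518 without a covariate). It was 5 without p190B replicates 1 and 3 and 4 to 9 with any single array left out. The count of member probe sets past the threshold, 1, became 2 with quantile normalisation, which adds Lamtor1, and 0 with either ratio. The count in the related lists, 0, became 1, Kif5b, with the filter at the 60th percentile, quantile normalisation and array weights. The replicate block gave 0 of all probe sets (2287 at an unadjusted p under 0.05) and 0 members, with Bloc1s4 1459783_s_at at an adjusted p of 0.0796. The labels do not say whether same-numbered arrays shared a preparation. The correlation of their deviations ran from −0.29 to 0.41, without other pairs to compare it to, so it cannot settle this. The Actb ratio difference of 0.11 did not pass without control replicate 5 (0.10) or 6 (0.11); leaving out single arrays gave 0.073 to 0.129 for Actb and 0.072 to 0.104 for Gapdh. No pair of member genes passed under any alternative run for the correlations.

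Of 15 member probe sets above the filter and not called, 10 kept their direction in every setting that gave a value and 5 turned in 16 cases. With the filter at the 60th percentile, Bloc1s3 and Lamtor2 1435729_at were not tested. Bloc1s2 was −0.0016 without p190B replicate 4 (up to 0.111 with another single array left out, and 0.163 without p190B replicates 1 and 3). Bloc1s4 1418834_at was −0.011 with equal medians, −0.038 with Gapdh as covariate, and −0.012, −0.0016 and −0.015 without control replicate 3, p190B replicate 1 and p190B replicate 4 (up to 0.053 with other arrays left out). Bloc1s5 was −0.011, −0.018 and −0.013 without control replicate 1, control replicate 2 and p190B replicate 5 (up to 0.126 with other arrays left out). Bloc1s6 1417350_at was 0.0037 with array weights, 0.273 with Actb and 0.344 with Gapdh as covariate, 0.0051 and 0.037 without p190B replicate 1 and replicate 3, and 0.170 when both were left out (down to −0.147 with other arrays left out). Lamtor2 1435729_at was 0.106 without p190B replicate 2 (down to −0.168 with another single array left out, and −0.241 without p190B replicates 1 and 3). The cause of these turns was not tested. With 6 arrays a group, members above the filter had an SE of 0.05 to 0.21.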
